A study of Mus musculus with 8 samples.

Results

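The genes described here make phosphatidylcholine and phosphatidylethanolamine, the main phospholipids of cell membranes, from choline and ethanolamine. They are Chka and Chkb (choline kinases), Etnk1 and Etnk2 (ethanolamine kinases), Pcyt1a and Pcyt2 (cytidylyl transferases), Chpt1 and Cept1 (terminal transferases), Pemt (the methyltransferase that makes phosphatidylcholine from phosphatidylethanolamine) and Flvcr2 (a membrane transporter of choline). Their probes were chosen as the non-control probes whose gene name on the array is a member's, with the older names Chk and Chkl accepted for Chka and Chkb, and each probe was read apart. The rule found 22 of the 41174 probes on the array, for 9 of the 10 genes, among 28146 gene names in all. No probe carried the name Flvcr2, and 1 probe named Mfsd7c, an older name of that gene, was matched to it through its RefSeq accession and is given apart from the counts. The genes were chosen on measured values, namely their ratio between the diets and their level in mothers against fetuses, so these values are given as a description, with no test.

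Liver RNA of C57BL/6J mice was compared between mothers with free access to chow (control) and mothers given 50% of the chow that controls ate, from gestation day 10 to 17 (food restriction, FR), with livers taken on gestation day 18. Maternal livers came from 6 mothers per diet and fetal livers from 2 male fetuses of each mother, and RNA was pooled. There was 1 pair of control and FR pools of 6 mothers (2 arrays), 1 pair of pools of 6 fetuses (2 arrays) and 2 pairs of pools of 3 fetuses (4 arrays). Each pair was hybridised in both dye orientations to an Agilent mouse array with 60-base probes. The maternal comparison therefore rests on 1 pool pair and has no replicate check. The labels do not say whether the pools of 3 and the pools of 6 fetuses came from different litters, so the spread over fetal pool pairs may be partly technical. The limma tests below treat the 3 fetal pool pairs as independent, and their p-values carry that limit. The ages of the mothers are not given in the sources used here. Arrays of mothers and of fetal pools of 6 lay on slide 1 and those of fetal pools of 3 on slide 2, so pool size and slide cannot be told apart.

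The sex and age marker genes followed the labels. In log2 units, control mothers had 12.8 and control fetuses 6.56 of Xist, the RNA of the inactive X chromosome. For the Y-linked Ddx3y these levels were 6.30 and 11.1, and for the fetal liver protein gene Afp 7.55 and 16.3. In the top 10% of spots by Cy3 signal, the image software marked 78.8% to 87.3% as non-uniform on each slide 1 array, and such spots were kept. Among member probes the mark was on all 4 arrays of slide 1 for Chkb probe 1, Etnk2 probe 2, Pcyt1a probe 2, Pcyt2 probe 2 and both Pemt probes. Without such spots these have no maternal value. The mark was on 3 arrays for Cept1 and Pcyt2 probe 1, and the latter also has no maternal value without such spots. For Chpt1 probe 4 the mark was on 1 array. No Chka probe carried it. Median spot signals per array ran from 67.6 to 275 units in Cy3 and from 118 to 300 in Cy5, against local background medians of 46 to 68. All member probes were well above background for both diets on every array except Chpt1 probe 1, which was so on 0 of the 6 fetal arrays, and no member spot was saturated.

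In the Kennedy pathway, choline or ethanolamine is phosphorylated by its kinase, activated with CTP by a cytidylyl transferase and joined to diacylglycerol by a transferase. The liver also makes phosphatidylcholine by methylating phosphatidylethanolamine with Pemt, and uses it for membranes, lipoproteins and bile. Choline kinase alpha, the product of Chka, takes the first step of the choline branch.

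Probes whose coordinates span an intron read spliced RNA. For each of the 5 genes with such a probe, 1 is printed (60 bases), in the sense of the mRNA. Positions are on mm9 from the array annotation. Chkb probe 2, at chr15:89258058-89258239 (minus), also spans an intron and is not printed. Chka probe 3 spans chr19:3887411-3889045 (plus strand), Chkb probe 1 chr15:89257068-89257276 (minus), Etnk1 probe 1 chr6:143135137-143143793 (plus), Pcyt1a probe 1 chr16:32467268-32470157 (plus) and Pemt probe 2 chr11:59787649-59790367 (minus). No base is marked in them.
Chka probe 3: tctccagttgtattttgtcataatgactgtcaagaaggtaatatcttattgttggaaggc
Chkb probe 1: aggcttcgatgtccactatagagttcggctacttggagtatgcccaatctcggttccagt
Etnk1 probe 1: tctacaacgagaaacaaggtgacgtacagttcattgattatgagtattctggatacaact
Pcyt1a probe 1: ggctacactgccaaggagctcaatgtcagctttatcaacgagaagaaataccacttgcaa
Pemt probe 2: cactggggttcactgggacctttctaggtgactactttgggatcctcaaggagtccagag

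Chka, Etnk2 and Chpt1 were the genes with a probe past 1.5-fold in mothers among the 22 probes found by array name, so the 250 bases before their start sites are printed, from RefSeq on GRCm38.p6. They lie at chr19:3851523-3851772 (plus strand, Chka), chr1:133363322-133363571 (plus, Etnk2) and chr10:88503971-88504220 (minus, Chpt1). Capitals mark the matches, on either strand, to any of 8 motifs: the E-box CACGTG, the sterol response element TCACNCCAC, the D-box TTANGTAA, the glucocorticoid receptor core motif TGTTCT, the CCAAT box CCAAT, the GC box GGGCGG, the TATA box TATAAA and the AP-1 site TGANTCA. Overlapping matches were counted apart.
Chka: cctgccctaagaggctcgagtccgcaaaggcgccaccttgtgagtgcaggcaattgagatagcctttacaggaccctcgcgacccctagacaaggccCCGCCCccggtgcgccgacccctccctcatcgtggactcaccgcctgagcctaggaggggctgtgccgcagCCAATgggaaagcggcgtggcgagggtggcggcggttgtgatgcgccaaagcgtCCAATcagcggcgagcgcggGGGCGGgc
Etnk2: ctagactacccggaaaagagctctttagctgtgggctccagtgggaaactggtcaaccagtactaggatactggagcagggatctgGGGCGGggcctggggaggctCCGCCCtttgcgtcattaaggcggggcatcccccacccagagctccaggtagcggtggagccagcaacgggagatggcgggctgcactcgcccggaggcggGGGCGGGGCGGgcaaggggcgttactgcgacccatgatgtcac
Chpt1: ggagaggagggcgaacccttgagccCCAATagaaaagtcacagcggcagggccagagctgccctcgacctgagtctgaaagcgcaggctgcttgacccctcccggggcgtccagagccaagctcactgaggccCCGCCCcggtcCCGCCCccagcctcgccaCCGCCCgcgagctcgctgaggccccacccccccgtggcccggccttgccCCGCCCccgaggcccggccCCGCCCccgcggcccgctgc

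In windows of 300 bases, which add the first 50 bases after the start, Chka held 2 CCAAT boxes and 3 GC boxes, 1 of them across the start site. Etnk2 held 4 GC boxes, and Chpt1 held 5 GC boxes and 1 CCAAT box. Among 32851 RefSeq windows of that length, 35.7% held a GC box and 37.4% a CCAAT box. The other 6 motifs had no match in these 3 windows, where 7.15% of all windows held the E-box, 1.24% the sterol response element, 2.32% the D-box, 19.0% the glucocorticoid receptor core motif, 13.6% the TATA box and 7.81% the AP-1 site. Of the 10 genes, 9 had a window, 14 windows in all, and Pcyt2 had none. Outside these 3 genes, Flvcr2 held an E-box that begins at base -20 from its start, and 2 overlapping windows of Pcyt1a held a sterol response element, which begins at base -116 in the first of them. A TATA box was matched at base -109 in Chkb, and the glucocorticoid receptor core motif at base -75 in a window of Cept1 and at base 31 in a window of Pemt. The D-box and the AP-1 site had no match in any of the 14 windows. A match here is a run of letters and does not show that a factor binds.

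Chka was far lower in FR mothers than in control mothers, on all 4 of its probes. Values are given as the log2 of FR over control, turned to the same direction for both dye orientations. Probe 2 gave -3.21 with FR in Cy5 and -3.05 with FR in Cy3, a mean of -3.13 that is an 8.76-fold lower signal in FR mothers. Probe 4 gave -2.84 and -2.29, with a mean of -2.57 (5.92-fold lower). Probe 1 gave -2.16 and -2.02, with a mean of -2.09 (4.25-fold lower). The intron-spanning probe 3 gave the smallest difference, -1.20 and -1.40, with a mean of -1.30 (2.46-fold lower). Both orientations thus gave the same sign on every Chka probe, and the means ran from -3.13 to -1.30. Ranked from the lowest among 28326 probes measured in mothers, probe 2 was 2, probe 4 was 6, probe 1 was 30 and probe 3 was 185.

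The Chka probes lie over 26.8 kb of the gene. Probe 1 is at chr19:3866971-3867030, probe 2 at chr19:3871843-3871902 and probe 4 at chr19:3893815-3893874 on mm9. Probes 3 and 4 carry an accession of Chka in the RefSeq table, while those of probes 1 and 2 were not in it, so these 2 rest on the array's gene name. In the authors' deposited log ratios, converted to log2, the maternal mean of probe 1 was -3.39, that of probe 2 -3.74 and that of probe 3 -1.71. The fold was thus over 1.5 times larger in those ratios for probes 1 and 2, in the same direction.

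**Figure D1:**
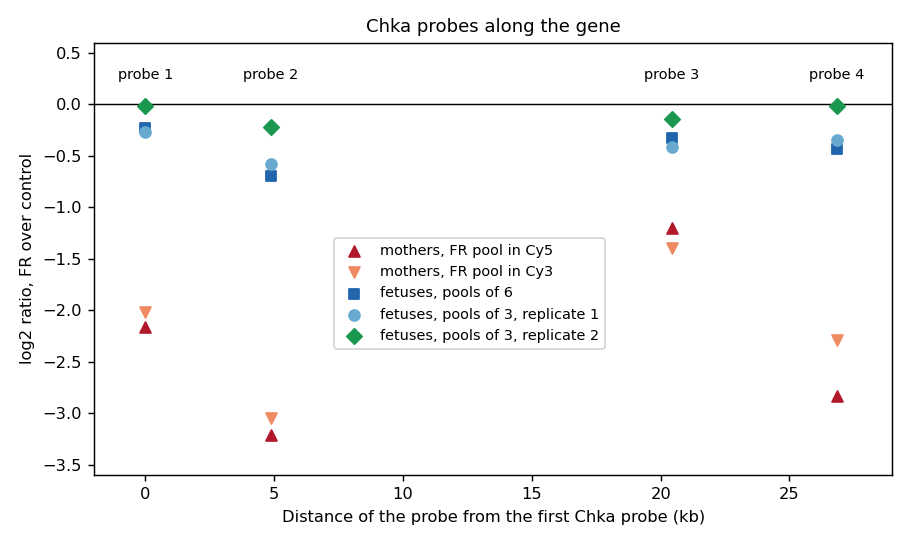
Log2 ratio of FR over control for the 4 Chka probes against their distance in kb from the first probe. Triangles are the 2 maternal arrays, other symbols the means of the 2 arrays of each fetal pool pair. The maternal points lie between -3.21 and -1.20 on every probe, and the fetal points between -0.70 and -0.02.

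In fetuses the Chka values lay on the same side but were small. Probe 2 gave -0.70 in the pools of 6 and -0.58 and -0.22 in the pools of 3, a mean of -0.50 ± 0.25 (SD, n = 3 pool pairs). Probe 3 gave -0.33, -0.42 and -0.14, with a mean of -0.30 ± 0.14. Probes 1, 2 and 3 were below 0 on all 6 fetal arrays, and the second pools of 3 had the value nearest to 0 on every Chka probe. Probe 4 gave -0.43, -0.35 and -0.02, with a mean of -0.26 ± 0.22, and was above 0 on 1 of the 6 arrays. Probe 1 gave -0.23, -0.27 and -0.02, with a mean of -0.17 ± 0.14. On every Chka probe both maternal values were below the fetal values. The share of all probes that separate in this way was not counted, and the gene was chosen on these values.

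The level of Chka in mothers and fetuses was read from the separate dye channels of slide 1, as log2 single-channel levels averaged over both orientations. A level is compared only within a probe. With free access to food, the maternal pool was above the fetal pool on all 4 probes, at 11.29 against 9.08 for probe 2, 11.12 against 9.38 for probe 4, 9.49 against 7.87 for probe 1 and 9.47 against 8.47 for probe 3. These are differences of 2.20, 1.73, 1.62 and 1.00 in log2. Under FR the maternal level minus the fetal level was -0.23, -0.40, -0.24 and 0.03 for the same probes. The difference seen in controls was thus not present between the FR pools of slide 1. With the 3 fetal control pools of both slides, the control differences were 1.46, 1.68, 1.62 and 1.01, and the value of probe 2 was smaller because its control level in the pools of 3 was 10.50 and 10.43, against 9.39 in the pool of 6 on that scale. For probe 2 the difference between mothers and fetuses thus varied with the fetal pools. On that scale the FR level was 8.435 in mothers and 9.608 in the mean of the 3 fetal pools for probe 2. It was 8.827 and 9.452 for probe 4, 7.715 and 8.011 for probe 1, and 8.479 and 8.473 for probe 3. FR mothers were thus below FR fetuses on probes 2, 4 and 1.

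**Figure D2:**
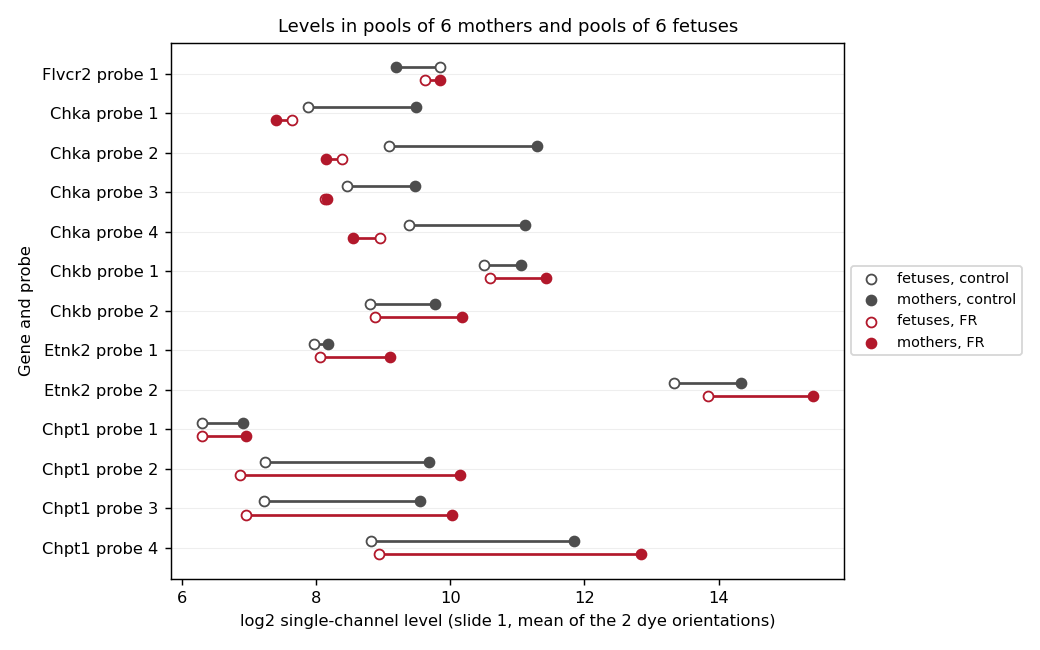
Log2 single-channel level on slide 1 in pools of 6 mothers (filled) and pools of 6 fetuses (open), control in grey and FR in red, for the probes of Flvcr2, Chka, Chkb, Etnk2 and Chpt1. The grey lines of Chka span 1.00 to 2.20 and its red lines at most 0.40, while the lines of Chpt1 probes 2 to 4 are longer in FR than in control.

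The second choline kinase gene, Chkb, differed from Chka in direction in mothers. Probe 1 gave 0.28 and 0.45 on the maternal arrays and probe 2 gave 0.15 and 0.65, with means of 0.37 and 0.40 that are 1.29-fold and 1.32-fold higher in FR. In fetuses probe 1 gave 0.08, 0.22 and 0.04, with a mean of 0.11 ± 0.10 (SD, n = 3 pool pairs), and probe 2 gave 0.07, 0.21 and 0.05. With arrays centred on their median and no loess, the fetal mean of probe 1 was -0.03, so no direction is given for Chkb in fetuses. Its control level was 0.55 (probe 1) and 0.97 (probe 2) higher in mothers than in fetuses.

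Ethanolamine kinase 2, Etnk2, was higher in FR mothers. Probe 2 gave 1.37 with FR in Cy5 and 0.76 with FR in Cy3, a mean of 1.07 (2.09-fold higher), and probe 1 gave 0.68 and 1.17, a mean of 0.92 (1.90-fold higher). Both probes were past 1.5-fold on both arrays. Probe 2 was also above 0 on all 6 fetal arrays, at 0.52 in the pools of 6 and 0.10 and 0.85 in the pools of 3, with a mean of 0.49 ± 0.38 (SD, n = 3 pool pairs). Without the first pools of 3 this mean was 0.68. Probe 1 gave 0.08, -0.03 and 0.17 in fetuses, a mean of 0.07 ± 0.10. The probes of Etnk2 therefore disagreed in fetuses. Probe 1 carries a predicted accession that the RefSeq table did not hold, and the spots of probe 2 were marked non-uniform on slide 1. The control level of probe 2 was 1.02 higher in mothers than in fetuses (1.80 without normalization between arrays), and that of probe 1 was 0.21 higher.

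Etnk1, the other ethanolamine kinase gene, gave 0.10, -0.15 and 0.00 in mothers for probes 1 to 3. Probe 1 was dim, with control levels of 6.80 in mothers and 6.81 in fetuses on slide 1. In the authors' deposited log ratios its maternal mean was 0.59, so no maternal value near 0 is claimed for that probe. The 3 probes of Etnk1 disagreed in fetuses, where the dimness of probe 1 limits the comparison. The intron-spanning probe 1 gave 0.01, 0.00 and 0.08, whereas probe 3 gave -0.17 in the pools of 6 and -0.61 and -0.46 in the pools of 3, with a mean of -0.41 ± 0.23 (SD, n = 3 pool pairs), and was below 0 on all 6 arrays. Probe 2 gave 0.02, -0.56 and -0.32. Probes 2 and 3, at chr6:143152938-143152997 and chr6:143154833-143154892, were lower in the pools of 3 on slide 2 than in the pools of 6 on slide 1. The sign of their control difference between mothers and fetuses also depended on the pools, with 0.51 and 0.24 on slide 1 and -0.19 and -0.37 over all fetal pools.

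The cytidylyl transferases catalyse the main regulated step of each branch. For Pcyt2, which activates ethanolamine, both probes were below 0 on all 6 fetal arrays. Probe 1 gave -0.63 in the pools of 6 and -0.31 and -0.24 in the pools of 3, a mean of -0.40 ± 0.21 (SD, n = 3 pool pairs). Probe 2 gave -0.37, -0.34 and -0.26, a mean of -0.32 ± 0.06. In mothers they were at -0.15 and -0.24, with the same sign in both orientations. For Pcyt1a, which activates choline, the intron-spanning probe 1 gave -0.05, -0.28 and -0.27 in fetuses and -0.03 in mothers, and probe 2 gave 0.07, 0.05 and -0.07 in fetuses and 0.06 in mothers. Probe 1 of Pcyt1a was below 0 on all 6 fetal arrays and probe 2 was not. On slide 1 the control levels of Pcyt1a and Pcyt2 in mothers and fetuses differed by 0.61 (Pcyt1a probe 1) or less, but without normalization between arrays Pcyt2 was 1.03 (probe 1) and 1.15 (probe 2) higher in mothers, against 0.20 and 0.45 with it.

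Chpt1, the cholinephosphotransferase that ends the choline branch, had the widest difference between mothers and fetuses among the members. On slide 1 its control level was 11.85 in mothers and 8.82 in fetuses at probe 4, 9.69 and 7.24 at probe 2, and 9.55 and 7.23 at probe 3. The differences of 3.03, 2.45 and 2.32 (8.18-fold at probe 4 and 5.47-fold at probe 2) became 3.29, 2.83 and 2.41 over all fetal pools. In the FR pools the differences were 3.91, 3.28 and 3.08, so the distance between mothers and fetuses was larger under FR on these 3 probes. Probe 1, at chr10:87932966-87933025, was dim and gave a difference of 0.60.

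In FR mothers Chpt1 probe 4 gave 0.78 and 1.22, a mean of 1.00 (2.00-fold higher), probe 2 gave 0.44 and 0.49, and probe 3 gave 0.54 and 0.42. Without non-uniform spots only the array at 1.22 remained for probe 4. Probe 1 gave 0.06 and 0.05. In fetuses probe 2 gave -0.36 in the pools of 6 and -0.38 and -0.23 in the pools of 3, a mean of -0.32 ± 0.08 (SD, n = 3 pool pairs). Probe 3 gave -0.28, -0.62 and -0.34, a mean of -0.41 ± 0.18. Probes 2 and 3, at chr10:87936834-87936893 and chr10:87937976-87938035, were thus above 0 on both maternal arrays and below 0 on all 6 fetal arrays. Probe 4, at chr10:87951131-87951190, gave 0.12, -0.03 and 0.24 in fetuses and did not share that pattern. In the authors' deposited log ratios the fetal means of probes 2 and 3 were -0.77 and -0.84, over 1.5 times as large on the log2 scale. Both probes were dim in fetuses, at control levels of 7.24 and 7.23 on slide 1, and the size of their fetal ratios varied with the processing.

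Cept1, whose enzyme takes either CDP-choline or CDP-ethanolamine, has 1 probe, at chr3:106306501-106306560. It gave -0.40 in the fetal pools of 6 and -0.59 and -0.09 in the pools of 3, a mean of -0.36 ± 0.25 (SD, n = 3 pool pairs), and was below 0 on 5 of 6 arrays. On the maternal arrays it gave -0.29 and 0.46, opposite signs in the 2 orientations, so no maternal direction can be given.

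Pemt gave nearly equal values on its 2 probes and unequal values among fetal pools. Probe 2 gave -0.31 in the pools of 6 and -0.77 and 0.02 in the pools of 3, a mean of -0.35 ± 0.40, and probe 1 gave -0.23, -0.72 and 0.06, a mean of -0.30 ± 0.39 (SD, n = 3 pool pairs). The SD exceeded the mean on both, and the first pools of 3 supplied the lowest value, without which the means were -0.14 (probe 2) and -0.08 (probe 1). In mothers the means were 0.03 and 0.07, and the control level of Pemt in mothers was 0.19 (probe 1) and 0.08 (probe 2) below that of fetuses, but 0.69 and 0.76 above it without normalization between arrays, so no direction is given.

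Flvcr2, read from the probe named Mfsd7c at chr12:87154338-87154397, gave 0.66 and 0.67 on the maternal arrays, a mean of 0.67 (1.59-fold higher in FR). In fetuses it gave -0.22, -0.13 and -0.17, a mean of -0.17 ± 0.05 (SD, n = 3 pool pairs), below 0 on all 6 arrays. The control level was 0.66 lower in mothers than in fetuses, while in the FR pools it was 0.23 higher in mothers. The order of mothers and fetuses was therefore opposite in the 2 diets for this probe.

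**Figure D3:**
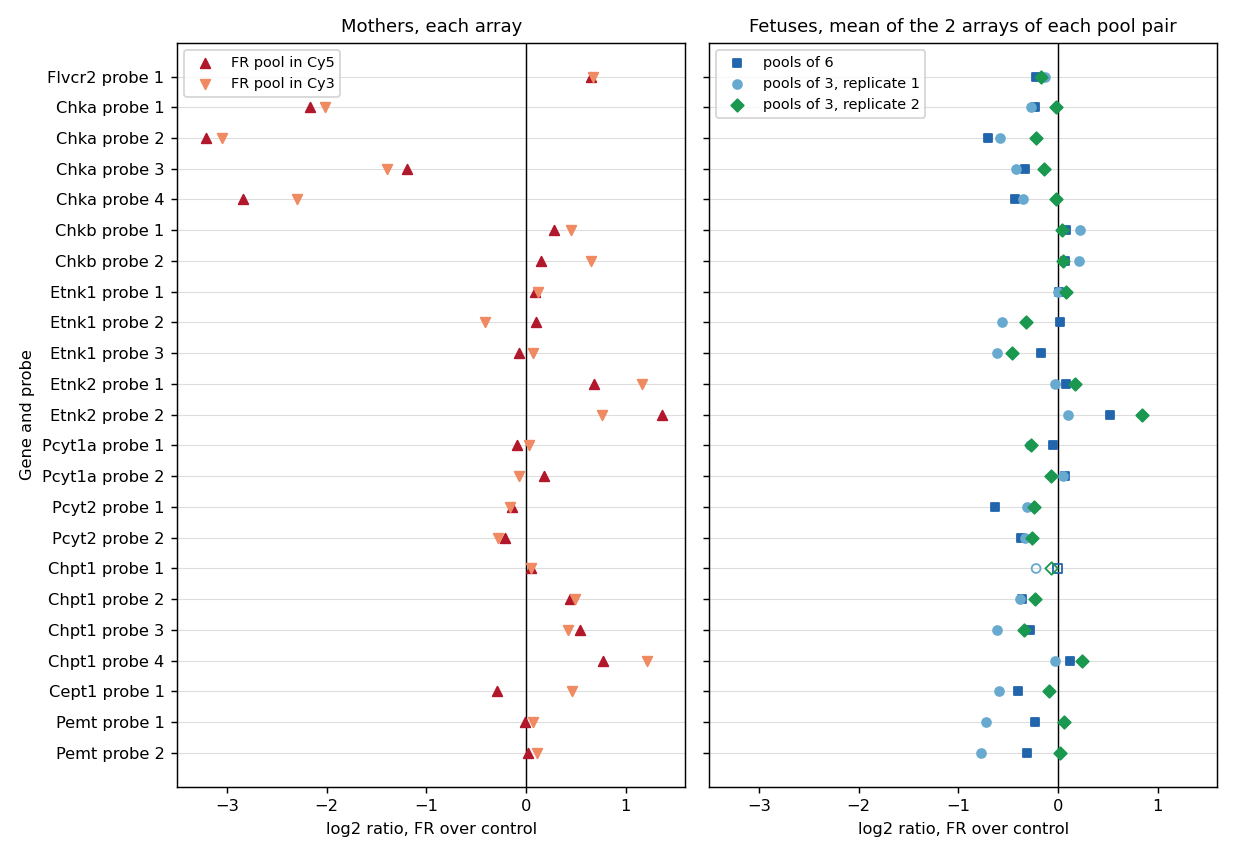
Log2 ratio of FR over control for all 22 probes and the Flvcr2 probe, with the 2 maternal arrays on the left and the means of the 3 fetal pool pairs on the right. Open symbols mark Chpt1 probe 1, which was not well above background in fetuses. In mothers the 4 Chka probes lie far to the left and the Etnk2 probes and Chpt1 probe 4 to the right, while all fetal points lie between -0.77 and 0.85.

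Counted over probes, 7 of 22 were past 1.5-fold with the same sign on both maternal arrays, 4 lower (Chka) and 3 higher (Etnk2 and Chpt1), where 8.9% of all 28326 measured probes were (4.83% lower and 4.07% higher). Just inside that threshold lay Etnk2 probe 1 at 0.92, and just outside it Chpt1 probe 3 at 0.48. The Flvcr2 probe, which is not among the 22, was past the threshold at 0.67. In fetuses 0 of the 21 measured probes had a mean past 1.5-fold with the same sign in the 3 pool pairs, where 4.56% of 30812 probes did; in the authors' deposited log ratios 2 probes, of Chpt1, did. Nearest to it were Chka probe 2 at -0.50 and Etnk2 probe 2 at 0.49. The same sign on all 6 fetal arrays was found for 10 of 21 probes, 9 lower and 1 higher, where 34.1% of all probes had it (19.1% lower and 15% higher), and the median of the 21 fetal means was -0.29 against 0.00 over all probes. For the control level, 6 of 22 probes were past 2-fold in both orientations, all higher in mothers (3 of Chka and 3 of Chpt1), where 15.3% of 33194 probes were, 7.15% in that direction. Just outside were Etnk2 probe 2 at 1.02 and Chka probe 3 at 1.00, each short of 2-fold in 1 orientation. These contrasts chose the genes, and nothing is read from the counts.

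Blood-forming and other cell types share the fetal liver, and fewer cells of a type cannot be told apart from less RNA per cell in pooled tissue. By limma at an adjusted p under 0.05, 10 of 12 B lineage markers and 9 of 12 granulocyte markers were lower in FR fetuses, as were 5 of 8 hepatocyte markers and 1 of 10 erythroid markers. Over all 16790 genes measured in fetuses, 16% were lower and 12.5% higher by this test. With the arrays scaled to equal spread limma called 0 of 30812 probes, and without the pools of 6 it called 1099. The mean level of the B lineage list was 10.17 to 10.27 in control and 9.06 to 9.56 in FR fetal pools. The granulocyte list was at 14.08 to 14.14 and 13.49 to 13.61, and the hepatocyte list at 15.16 to 15.34 and 14.79 to 15.13. Endothelial, bile duct, stellate and Kupffer cell lists had 4 of 10, 3 of 6, 3 of 8 and 3 of 10 markers lower, and 1 Kupffer cell marker higher. In mothers, markers past 1.5-fold lower under FR were 4 of 8 for stellate and mesenchymal cells (Col3a1 at -2.11 and Col1a1 at -1.46, both collagen genes), 4 of 10 for Kupffer cells (Clec4f at -1.28), 3 of 6 for the erythroid and 3 of 9 for the B lineage list. Hepatocyte, granulocyte, endothelial and bile duct lists had 1 lower each, of 8, 8, 10 and 6, and 1 Kupffer cell and 1 erythroid marker were higher. Of the hepatocyte markers, Alb (1.08 and -1.08), Fgb, Apoa1, Apoa2, Ahsg and Cebpa had opposite signs on the 2 maternal arrays, while Ttr and Hnf4a did not. No maternal direction is given for those with opposite signs. Over all 15749 genes measured in mothers, 6.34% were lower and 4.44% higher past 1.5-fold on both arrays. The control level of the erythroid and granulocyte lists was lower in mothers than in fetuses, with median differences of -4.87 and -6.49. The part of these cell types in the fetal and maternal values, and in the differences between mothers and fetuses, was not tested.

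The values of Chka probe 2 over the 4 pool pairs were most like those of Nfil3, Dexi, Car3, Tubb2a and Hao2, by the Euclidean distance of their log2 ratios among 23941 probes of other named genes. Nfil3, a transcriptional repressor, was nearest at a distance of 0.67, with -2.72 in mothers and -0.48, -0.14 and -0.42 in fetuses. Dexi was at 0.73, with -2.47 in mothers, and Car3, a carbonic anhydrase gene, at 0.84, with -2.32. Tubb2a and Hao2 followed at 1.03 and 1.05. The maternal value was the lowest of the 4 for each of these genes, as for Chka probe 2. The genes were picked by their distance to that probe, so nothing is read from this.

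Beside the members, 66 genes of choline and phospholipid metabolism were examined, of which 65 had a probe and 62 were measured in fetuses, each read from its brightest probe. By limma over the 3 fetal pool pairs, 13 rose and 13 fell under FR at an adjusted p under 0.05, and 36 did not pass. This is 26 of 62 genes, where 28.5% of the 16790 genes measured passed (12.5% higher and 16% lower). The median of the 62 genes was -0.01 and that of all genes 0.01. Without the pools of 6, which are the fetal arrays of slide 1, limma called 6 of these genes, namely Gnmt, Lpcat3, Crls1, Tamm41, Chdh and Mboat2. With the arrays scaled to equal spread limma called 0 of the 62 list genes, although 30 had an unadjusted p under 0.05, where 10918 of all 30812 probes had it. The calls of Selenoi, Etnppl, Aldh7a1, Smpd3, Stard7, Stard10, Pctp and Pltp were each lost with the slide as a block, without non-uniform spots and without the pools of 6. In mothers 9 of 60 were past 1.5-fold on both arrays, 6 higher and 3 lower, where 10.8% of 15749 genes were (4.44% higher and 6.34% lower).

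Choline oxidation and the methyl cycle, which compete with phospholipid synthesis for choline and supply the methyl groups that Pemt uses, held 3 genes that rose and 2 that fell in fetuses, of 9. Chdh, the first enzyme of choline oxidation, fell by 1.08 ± 0.17 on the log2 scale (adjusted p = 0.00475), with -1.04 in the pools of 6 and -1.26 and -0.92 in the pools of 3. Its other probe had a smaller fetal mean, -0.57. Mat1a, which makes S-adenosylmethionine in liver, rose by 0.90 ± 0.33 (adjusted p = 0.0114), and Gnmt, which consumes it, by 0.75 ± 0.06 (adjusted p = 0.0047). Ahcy, which clears S-adenosylhomocysteine, rose by 0.44 ± 0.11 (adjusted p = 0.0101) and was at 1.02 in mothers. The second gene to fall was Aldh7a1, at -0.25 ± 0.13 (adjusted p = 0.0478), while its other probe gave 0.04, and it was called in 4 of 13 alternatives. All pool pairs had the same sign for each of these 5 genes (limma, 3 fetal pool pairs).

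The turnover and remodelling list had 2 genes that rose and 6 that fell in fetuses, of 19. Gpcpd1, which breaks down glycerophosphocholine and so returns choline, rose by 0.68 ± 0.27 (adjusted p = 0.0136). In mothers it gave 2.13 and 2.02 on the 2 arrays, a mean of 2.07, and its other 3 probes gave 2.04, 1.73 and 2.09. Gde1, another glycerophosphodiester phosphodiesterase gene, rose by 0.34 ± 0.09 in fetuses (adjusted p = 0.0149) and was at 1.05 in mothers. Both were thus higher in FR in mothers and in fetuses. Among acyltransferases that remodel phospholipids, Mboat2 fell by 0.63 ± 0.08 (adjusted p = 0.00512) and Lpcat3 by 0.59 ± 0.13 (adjusted p = 0.00734), while Lpcat3 gave 0.30 and 1.01 on the maternal arrays. Abhd3, a phospholipase, fell by 0.76 ± 0.28 (adjusted p = 0.0115). The other 3 that fell were Pld1, Mboat1 and Pld2, at -0.44, -0.33 and -0.31, and Pld1 was at -0.62 in mothers. The other probe of Pld1 gave -0.30 in fetuses and -0.20 in mothers.

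Of the 7 genes of the serine and ethanolamine branches, 0 rose and 2 fell in fetuses by limma, and 5 did not pass. Over all 62 list genes, 40 had an unadjusted p under 0.05, where 12400 of all 30812 probes had it (limma). Selenoi, an ethanolamine phosphotransferase gene, fell by 0.54 ± 0.26 (adjusted p = 0.0227), with -0.51, -0.82 and -0.29 in the pool pairs, and was at -0.76 in mothers. Its other 2 probes gave -0.29 and -0.27 in fetuses. Etnppl, which degrades phosphoethanolamine, fell by 0.98 ± 0.59 (adjusted p = 0.0313), while its other probe had a smaller fetal mean, -0.31. The 2 probes of Etnppl disagreed in mothers, at -0.06 and 1.69. Among 6 measured genes of choline uptake, Slc44a4 fell by 0.58 ± 0.17 (adjusted p = 0.00986) and Flvcr1, a relative of Flvcr2, rose by 0.31 ± 0.05 (adjusted p = 0.0125). The other probe of Flvcr1 gave 0.09 in fetuses.

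In the cardiolipin and phosphatidylinositol branches 3 of 8 genes rose and 0 fell by limma. Crls1, the cardiolipin synthase gene, rose by 0.79 ± 0.23 (adjusted p = 0.00844), Tamm41 by 0.61 ± 0.05 (adjusted p = 0.00483) and Ptpmt1 by 0.40 ± 0.11 (adjusted p = 0.0119). These encode mitochondrial enzymes of the cardiolipin route, and Tamm41 was at 0.83 in mothers. The other probe of Crls1 gave 0.30 in fetuses and -0.04 in mothers. Of 7 sphingomyelin genes, Smpd3 rose by 0.63 ± 0.39 (adjusted p = 0.0353), although its other 2 probes gave 0.09 and 0.10, and Sgms1 rose by 0.30 ± 0.11 (adjusted p = 0.0253). Sgms2, a sphingomyelin synthase gene, did not pass in fetuses (0.20, limma adjusted p = 0.118) and was at 0.67 in mothers, where its other probe gave 0.31. Of 6 genes of lipid transfer and biliary export, Stard7 and Stard10 rose by 0.37 and 0.24, and Pctp and Pltp fell by 0.42 and 0.19 (limma, adjusted p between 0.0287 and 0.0432), with Pltp called in 4, Stard10 in 5, Stard7 in 7 and Pctp in 8 of 13 alternatives.

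**Figure D4:**
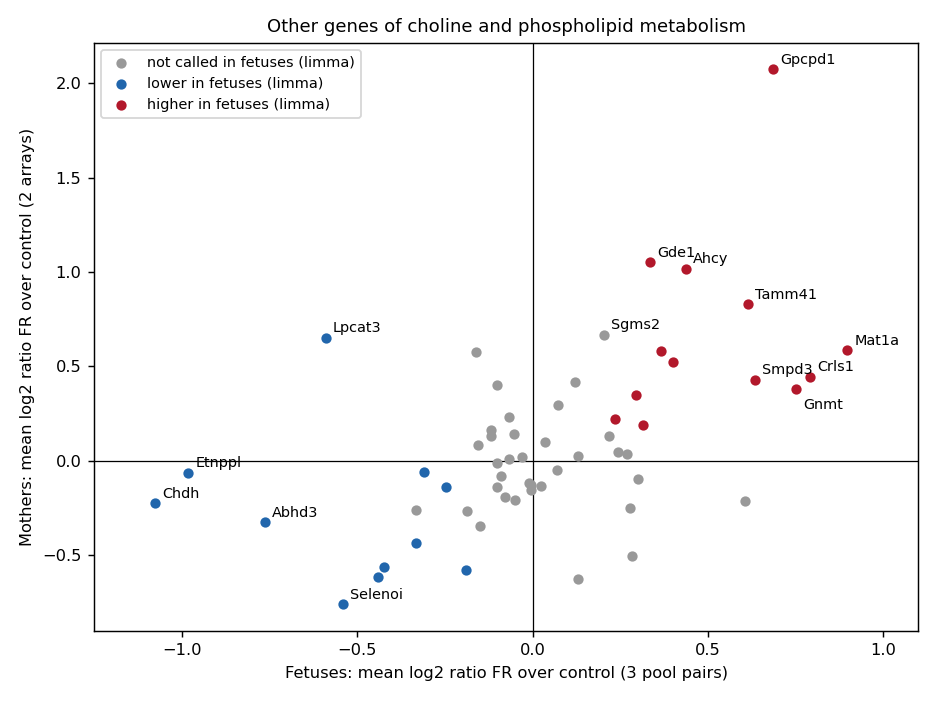
Mean log2 ratio of FR over control in mothers (2 arrays) against that in fetuses (3 pool pairs) for the 59 list genes measured in both, coloured by the limma call in fetuses. Gpcpd1 lies highest, at 2.07 in mothers and 0.68 in fetuses, and Lpcat3 lies apart from the other genes that fell, at 0.65 in mothers and -0.59 in fetuses.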

How the data were processed

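The scanner files hold Cy3 and Cy5 intensity per spot and local background, and flags of 0 or 1 per spot, per the file headers, which name Agilent Feature Extraction 9.5.3.1 for slide 1 and 11.0.1.1 for slide 2. The submitters' processing notes name 9.5.3.1. The authors deposited log10 Cy5/Cy3 ratios, equal to those of the scanner files within 5e-08, with array medians from -0.0218 to 0.0126.

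In R 4.3.3, limma 3.58.1 corrected background by normexp (offset 50, spot mean on slide 1 and median on slide 2) and normalized each array by loess with control spots at weight 0. Population outlier spots were left out. Log2 ratios were turned to FR over control, in contrast to the deposited log10 ratios, and the 2 arrays of a dye swap were averaged to 1 replicate. A probe was kept if well above background in 1 diet on all arrays of a comparison. Levels come from single channels after loess and Aquantile on slide 1. limma (lmFit, eBayes) tested 3 fetal pool pairs against 0, adjusted by Benjamini-Hochberg over 30812 probes, and is read for genes outside the chosen set. It was tested on simulated data. A probe's gene is the array's name or, for lists, a RefSeq symbol found for 32818 of 41174 probes.

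The genes, lists and tests were chosen with earlier results of these data known. Named list genes were, per list, up to 4 called ones by size and up to 2 of the largest maternal change, beyond which Mboat1, Pld1, Pld2 and Aldh7a1 complete a count and were chosen after their values were seen. A list gene that the rule names is not reported here. Alternatives were the offset, loess, scaling, spot flags, spot statistic, deposited ratios, dim probe filter, slide block, random pool block and leaving out each pool pair. The array descriptions also mention rat hippocampus and exercise and another pool number, and the titles were followed.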

Additional observations from a re-analysis of the deposited data

Results flagged for a closer look

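Probes of 2 genes had maternal and fetal ratios of opposite sign on every array, and this difference was not tested. Chpt1 probe 2 was above 0 on both maternal arrays and below 0 on all 6 fetal arrays, with a maternal mean 0.79 higher than the fetal mean. Chpt1 probe 3 did the same, with a difference of 0.89, and the Flvcr2 probe with a difference of 0.84. Among 27584 probes measured in both, 1353 (4.91%) had opposite signs in this way, in either direction. Chpt1 probes 2 and 3 were dim in fetuses, with control levels of 7.24 and 7.23 on slide 1, though well above background. Chpt1 probe 4, brighter at 8.82, did not share the pattern, since its fetal arrays took both signs.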

How the results depend on the processing

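Of 408 values of member probes under the alternatives, 340 stayed within the spread of the value given, 68 moved beyond it and 0 of the called values reversed. Of the 408, 125 were maternal means and 101 control differences between mothers and fetuses. These rest on 1 maternal pool pair and have no spread between maternal pools, so for them the count is no check on replicates. Some values that were not called changed sign, among them the control differences of Pemt without normalization between arrays. The 7 maternal probes past 1.5-fold became 5 to 7, and the 6 probes past 2-fold between mothers and fetuses 5 to 8. The count of 0 fetal probes past 1.5-fold became 1 with no loess, 1 with scaling between arrays (Chka probe 2 in each) and 2 with the deposited log ratios (Chpt1 probes 2 and 3), and 0 to 1 with a pool pair left out. The 26 list genes called by limma became 17 with no loess, 17 without non-uniform spots, 16 with slide as a block and 0 with scaling between arrays, where the lowest adjusted p was 0.0582 and 10918 of 30812 probes had an unadjusted p under 0.05. Leaving out a pool pair gave 6 to 26 calls, with 6 without the pools of 6 and 19 without the first pools of 3, fits that test fewer pool pairs; the cause of the other shifts was not tested. Of the 26 genes, 15 remained called with the slide block and 17 without non-uniform spots. No paired analysis was possible because each ratio already pairs a control and an FR pool on its array and the groups share fewer than 2 replicate numbers.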
